A study of Mus musculus with 6 samples.

Results

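Deep CG dyads with 5-hydroxymethylcytosine (5hmC) on 1 strand are CG dinucleotides whose cytosine on one strand carried many 5hmC reads while the paired cytosine on the other strand was not listed at all. A dyad was a member when exactly 1 of its strands was listed for 5hmC, that strand held at least 33 reads, and the dyad lay on chromosomes 1 to 19. Dyads whose only strand listed for 5-formylcytosine (5fC) was the opposite one were left out, which removed 17832 dyads. The rule found 424167 members among 11135596 listed 5hmC CG dyads, or 3.81%. Members were chosen by their 5hmC reads and strands and by the strand of 5fC, so those values are given as a description and support nothing.

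The cells were E14, an established line of mouse embryonic stem cells, grown in serum-containing medium with LIF on gelatin without any treatment or genotype contrast. By the labels, a culture at passage 14 gave 2 technical replicate libraries for each mark, and a culture at passage 12 gave 2 more for 5hmC, 6 in all. The sequencing assay is called Pvu-Seal-seq. Each mark has a single read number per listed cytosine, without separate libraries. The deposited counts of both marks are named b1, and the passage 14 libraries are titled bio1. Whether the passage 12 libraries entered the 5hmC counts is not stated. The tables held 264008048 5hmC reads at 20807956 cytosines and 102305049 5fC reads at 6248342 cytosines. With 1 pooled count per site there is no replicate error and no test between groups. Shares have 95% Wilson intervals, which cover counting error over sites only, and ranges over the 19 autosomes, which come from the same libraries and are not replicates.

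A CG site reads as CG on both strands, and methylation at CG is copied to the new strand after replication by the maintenance methyltransferase. TET enzymes oxidise 5-methylcytosine to 5hmC and onward to 5fC, each cytosine being its own substrate, so that the strands of a dyad can carry different marks. PvuRts1I, the enzyme of the assay, cuts DNA a short distance downstream of a modified cytosine and is known to prefer places where another cytosine, on the opposite strand, lies at a like distance beyond the cut. Each strand of a CG dyad therefore points to a different flank. The plus cytosine is read from a cut to its right and the minus cytosine from a cut to its left. Absence from the list does not show that a strand is free of 5hmC.

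The members held a median of 43 5hmC reads on the listed strand, with quartiles at 37 and 54 and the 99th percentile at 113. The listed strand was plus in 50.1% of members. Most members lay near the limit of the rule: 41.4% had 33 to 40 reads, 23.2% had 41 to 48, 21.99% had 49 to 64, 11.2% had 65 to 96 and 2.28% had 97 or more. Just inside the limit, 27785 dyads had 33 reads, and just outside it 30115 had 32. Of these, 57.4% and 55.9% had 5fC on the listed strand, so the limit marks no step.

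Dyads this deep were more often listed on both strands than on 1. Among 1345005 dyads with at least 33 reads on a strand, 32.9% were listed on 1 strand (interval 32.8 to 32.9%), counting those left out for 5fC. The one-strand share fell from 35.2% among dyads with 33 to 40 reads on the stronger strand to 28.8% among those with 97 or more. At 1000 reads or more, 25 of 100 deep dyads had no listed 5hmC on the other strand (interval 17.5 to 34.3%). Of these 25, 10 lay in a single window of 100 kb on chromosome 2. These shares describe the classes that the rule was built on.

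The listed strand of a member faced another listed cytosine across the place of the cut far more often than the unlisted strand did. A facing cytosine is here one on the opposite strand, downstream of the cytosine in question, with distances counted from one cytosine to the other. At 20 to 23 bases, 51.8% of members had a listed 5hmC cytosine facing the listed strand (interval 51.7 to 52.0%, 48.98 to 54.5% over the autosomes). At the same distance, 5.201% had one facing the unlisted strand (5.13 to 5.27%, 4.76 to 5.92% over the autosomes). Both values come from the same dyads, but from different flanks, whose numbers of listed cytosines also differ at other distances. The rule fixed which strand had 5hmC reads, and whether a cut counts for both cytosines is not known. The contrast is therefore a description that is not independent of how members were chosen. Counting partners of at least 10 reads alone, the shares were 32.4% on the listed side and 1.55% on the unlisted side. A window of 18 to 25 bases gave 59.0% and 10.6%.

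Base by base, the facing cytosines of the listed strand stood at 21 to 24 bases. A listed cytosine faced 10.4% of members at 21 bases, 24.5% at 22, 18.6% at 23 and 8.41% at 24. At 20 and at 25 bases the shares were 1.10% and 1.60%, close to the median of 1.31% over offsets of 30 to 60 bases on either side. With the window at 21 to 24 bases, chosen after this profile was seen and used from here on, 57.7% of members had a facing cytosine on the listed side and 5.81% on the unlisted side. Windows of the same width farther out, at 31 to 34 and 41 to 44 bases, gave 6.04% and 4.49% on the unlisted side. The 5.81% on the unlisted side therefore lay between these, whereas on the listed side the farther windows gave 5.13% and 7.88%. Within the unlisted-side window the share was 1.90% at 24 bases, above the highest value of 1.72% over offsets of 30 to 60 bases, and between 1.19% and 1.47% at 21 to 23 bases.

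**Figure D1:**
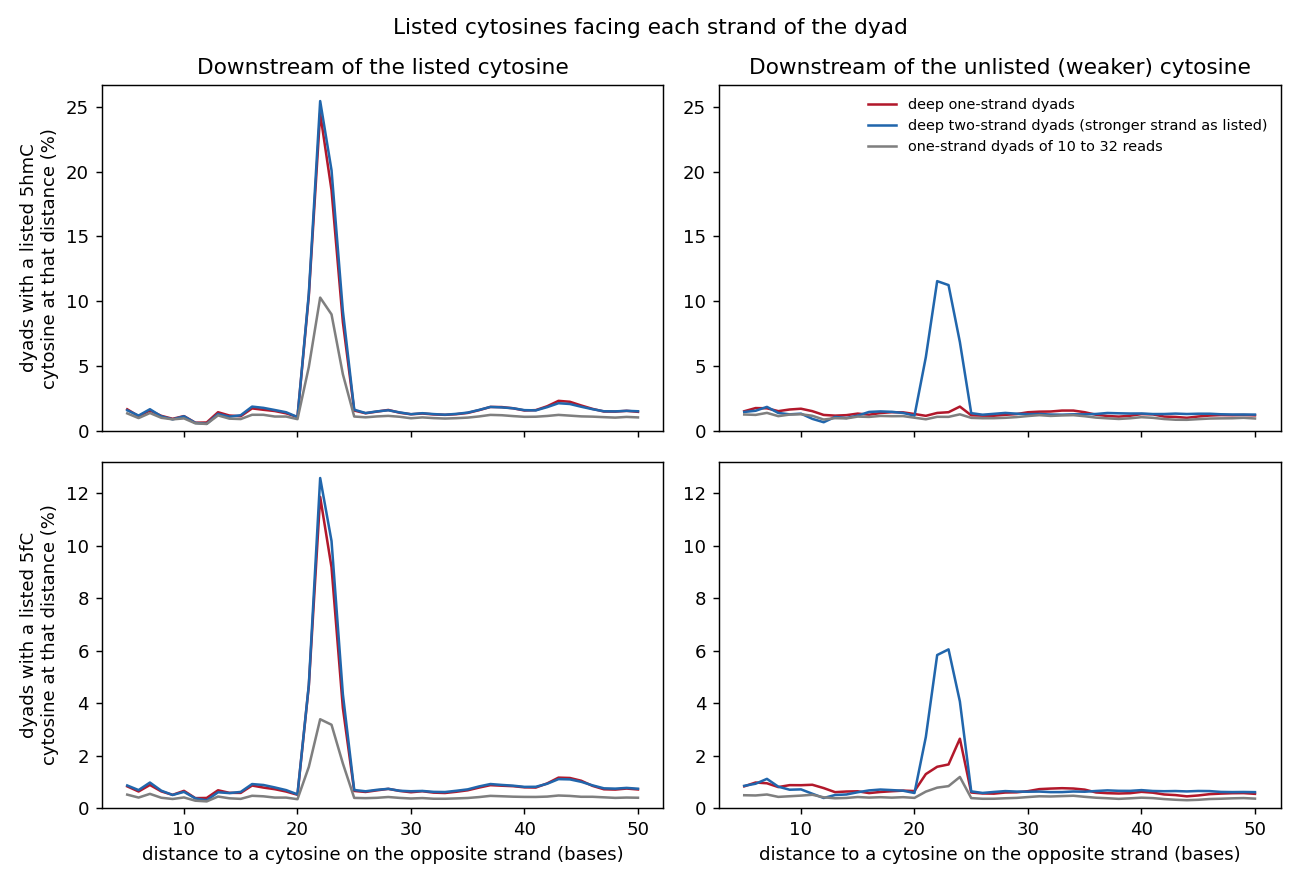
Share of dyads with a listed 5hmC (top) or 5fC (bottom) cytosine on the opposite strand, by distance in bases downstream of the listed cytosine (left) and of the unlisted or weaker one (right). Members (red) reached 24.5% at 22 bases on the listed side and on the unlisted side showed a small step for 5hmC, 1.90% at 24 bases, and a clearer one for 5fC, 2.65% at 24 bases, both well under those of deep two-strand dyads (blue).

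Deep dyads listed on both strands differed from the members on the side of the second strand. There were 903006 such dyads with at least 33 reads on a strand, with a median of 14 reads on the weaker strand. On the side of the stronger strand 60.9% had a facing cytosine, against 57.7% of the members. On the side of the weaker strand 33.6% had one, against 5.81% on the unlisted side of the members. Over the autosomes, all from the same libraries, the shares ranged from 31.4 to 35.5% and from 5.31 to 6.51%. The groups were defined by the 5hmC reads of the second strand, which may share cuts with cytosines facing it. This contrast is therefore not independent of how the groups were chosen. In one-strand dyads of 10 to 32 reads, of which there were 2518873, the shares were 27.6% on the listed side and 4.36% on the unlisted side.

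The share of facing cytosines on the second side rose step by step with the reads on that strand. It was 5.84% where the second strand was unlisted (members and left-out dyads together), 11.7% where it had 2 to 4 reads, 19.03% at 5 to 8, 30.3% at 9 to 16, 44.9% at 17 to 32 and 57.3% at 33 or more. On the stronger side the share stayed between 57.8% and 63.6% across these classes. By this measure the one-strand dyads formed the low end of a gradient. A cut between a pair of facing cytosines leaves an end on each side, and whether a cut counts for both is not known, so the 5hmC listings of a facing pair do not count as independent. Their part in the difference was not tested.

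**Figure D2:**
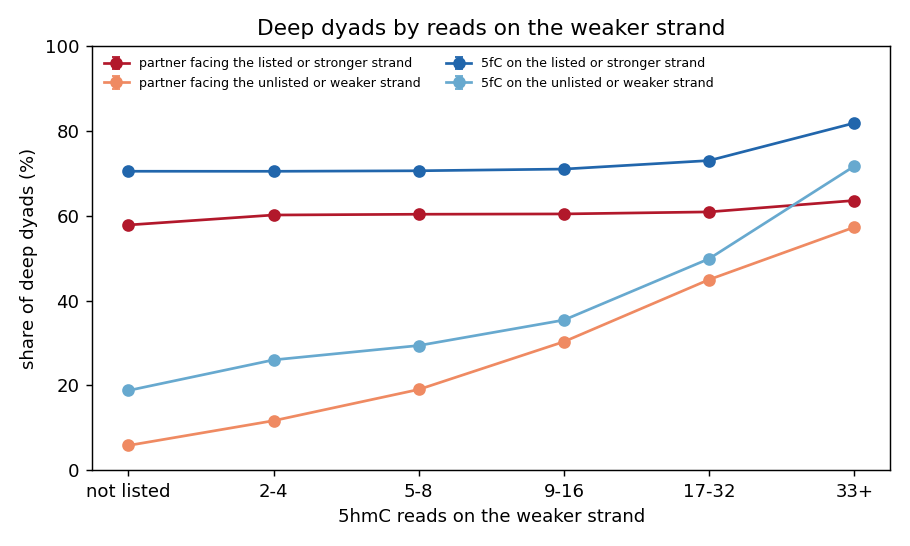
Deep dyads (at least 33 reads on a strand) by the 5hmC reads on the weaker strand (x axis), with the percentage having a facing cytosine at 21 to 24 bases on either side or 5fC on either strand; bars are 95% Wilson intervals, smaller than the points. The stronger-side values stayed between 57.8% and 63.6%, while the weaker-side values climbed from 5.84% to 57.3%.

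By both sides together, 54.2% of members had a facing cytosine on the listed side alone, 3.46% on both sides, 2.35% on the unlisted side alone and 39.97% on neither. Among deep two-strand dyads the corresponding shares were 38.3%, 22.6%, 11.01% and 28.1%. Members with a partner on neither side were slightly shallower, with a median of 41 reads against 45 for those with one on the listed side alone. The share with a listed-side partner also grew with the reads of the member, from 51.4% at 33 to 40 reads to 73.3% at 97 or more. On the unlisted side it moved from 5.43% to 6.89% over the same classes.

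Most facing cytosines lay outside CG. Of the 244659 on the listed side (the deepest where a member had several), 34.7% were in CA, 26.3% in CG, 23.8% in CT and 15.2% in CC. Among all 20807956 listed 5hmC cytosines, at least 11135596 lay in CG, as each listed CG dyad of chromosomes 1 to 19 holds at least 1. The distance differed by dinucleotide: 23.1% of CC partners stood at 24 bases, against 7.26% of CA partners, while 22 bases was the most frequent distance for each of the 4 dinucleotides. Partners outside CG were shallow, with medians of 10 reads for CA and 9 for CC and CT, about 0.20 to 0.21 of the reads of their member at the median. At most 0.479% of partners in each of these dinucleotides were deeper than the member. Whether a cut counts for both cytosines is not known, so these listings do not by themselves show 5hmC outside CG.

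CG partners were deeper and were often two-strand dyads. Their median was 32 reads, 0.65 of the member's reads at the median, and 22.4% had more reads than the member. The partner dyad was listed on both strands in 66.4% of 64263 cases (66.1 to 66.8%). Where both of its strands were listed, the strand facing the member was the deeper one in 77.2% of cases. Its facing cytosine is therefore usually the stronger one, although partners were picked as the deepest at 21 to 24 bases, which favours deep ones.

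Some members faced each other. There were 4842 pairs of a plus-strand and a minus-strand member with 21 to 24 bases between their listed cytosines, and 9681 members, 2.28% of all, were in such a pair. Of the pairs, 2241 stood at 22 bases, 1236 at 23, 1083 at 21 and 282 at 24. The deeper member had 1.29 times the reads of the shallower at the median, and reads on the 2 sides had a Spearman correlation across pairs of 0.26, a description over pairs that may share cuts. Both members had 5fC on their listed strand in 72.8% of pairs and neither in 4.05%.

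The deepest facing pairs, picked after their values were seen by the reads of the shallower member, show the pattern site by site in mm9 positions. On chromosome 8 the plus cytosine at 83308749 held 181 reads and the minus cytosine at 83308770 held 159. On chromosome 11 the cytosines at 6296378 and 6296401 held 178 and 159 reads, and on chromosome 12 those at 25646818 and 25646840 held 151 and 149. Each of these 6 cytosines was also listed for 5fC, with 40 to 109 reads, and by the rule none of their dyads had listed 5hmC on the outward strand.

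Neighbouring members as a whole did not take strands evenly. Of 55629 pairs of adjacent members within 200 bases, 42.3% were on the same strand (41.9 to 42.7%). When the dyads were 20 to 23 bases apart, 93.2% of 5092 pairs faced each other, 2.24% faced away and 4.52% shared a strand. At this distance 69.5% of pairs of one-strand dyads of 10 to 32 reads faced each other. For the stronger strands of deep two-strand dyads it was 65.6%. Members were chosen by their listed strand and facing members may share cuts, so these orientations are not independent of that choice. At 11 to 19 bases the order among members was turned, with 31.98% facing away and 22.7% facing. At 11 bases alone 396 pairs faced away and 38 faced each other. One-strand dyads of 10 to 32 reads had the same order at 11 to 19 bases, 32.4% facing away and 22.9% facing. The stronger strands of deep two-strand dyads had the reverse, 19.1% facing away and 31.4% facing. 

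An excess of facing pairs also reached well past a single cut. At 24 to 50, 51 to 100 and 101 to 200 bases, 31.6%, 32.4% and 30.4% of neighbouring members faced each other, against 22.2%, 22.1% and 23.2% that faced away, and facing pairs led on each of the 19 autosomes. At 201 to 500 bases the shares were 27.1% and 25.6%, and at 501 to 1000 bases 24.2% and 26.1%. The stronger strands of deep two-strand dyads gave like values at 51 to 100 bases, 30.9% facing and 21.2% facing away. One-strand dyads of 10 to 32 reads gave 25.99% and 24.9%. In these shallower dyads the excess was small, but facing pairs led on 18 of 19 autosomes at 51 to 100 bases and on 19 of 19 at 101 to 200. At 201 to 500 bases facing pairs led on 17 of 19 autosomes for members and on 0 of 19 for deep two-strand dyads, whose shares there were 24.1% facing and 26.95% facing away.

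**Figure D3:**
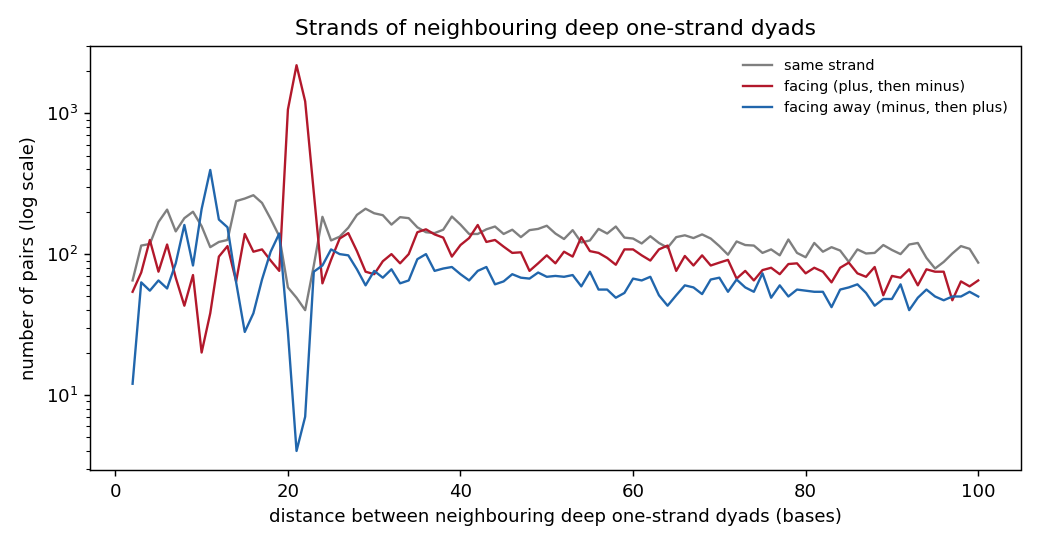
Number of pairs of adjacent members (log axis) by the distance between their dyads in bases, split into pairs on the same strand (grey), facing (red) and facing away (blue). Facing pairs rose to 2195 at 21 bases, where 4 pairs faced away, and stayed above pairs facing away at most distances beyond 30 bases.

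5fC, the next oxidation product, was read from its own table. Of the members, 73.4% were listed for 5fC on the strand listed for 5hmC (73.3 to 73.6%, 72.1 to 75.7% over the autosomes). Because the rule removed dyads with 5fC on the opposite strand alone, the strands are compared with those dyads put back. Of the resulting 441999 deep one-strand dyads, 55.7% had 5fC on the listed strand alone, 14.8% on both strands, 4.03% on the opposite strand alone and 25.5% on neither. Where 5fC was listed on both strands it had a median of 24 reads on the strand with 5hmC and 11 on the other.

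At equal 5hmC reads, the listed strand of one-strand dyads had 5fC nearly as often as the stronger strand of two-strand dyads. The shares were 59.4% and 60.8% at 33 to 40 reads, 79.7% and 80.7% at 49 to 64, and 97.2% and 97.4% at 97 or more. The difference ran from -1.41 points in the lowest class to -0.23 in the highest. One-strand dyads were lower on all 19 autosomes at 33 to 40 reads, and on 12 of 19 at 97 or more. Pooled over the autosomes, one-strand dyads thus differed by at most 1.41 points in 5fC on the listed strand in these classes. On single autosomes the difference ran from -3.33 points, at 97 or more reads, to 1.19 points, at 41 to 48. No test was possible.

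The opposite strand differed far more. With 33 to 40 5hmC reads on the stronger strand, 15.7% of one-strand dyads and 35.3% of two-strand dyads had 5fC on the opposite strand. With 97 or more reads the shares were 30.7% and 60.2%. Between one-strand dyads and two-strand dyads with 2 to 4 reads on the weaker strand, the gap was smaller, 18.8% against 26.01%. At 33 or more reads on the weaker strand it reached 71.6%. Over all, 83083 deep one-strand dyads had 5fC at the cytosine with no listed 5hmC. By what step the libraries separate 5fC from 5hmC was not stated in the labels.

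**Figure D4:**
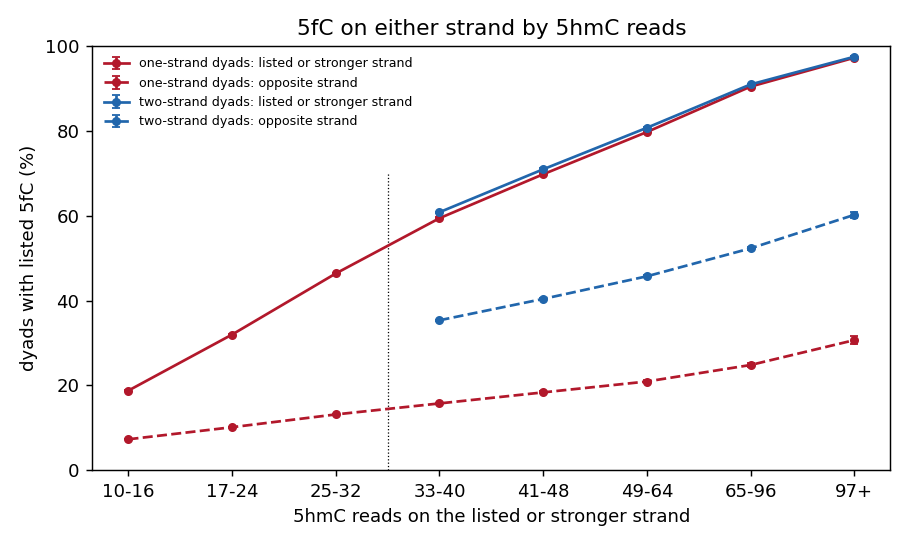
Percentage of dyads with listed 5fC on the listed or stronger strand (solid) and on the opposite strand (dashed) by 5hmC reads on the listed or stronger strand, for one-strand dyads with none left out (red) and two-strand dyads (blue); the dotted line marks the limit of 33 reads and bars are 95% Wilson intervals. The solid lines lie within 1.41 points of each other, while the dashed lines are 15.7% against 35.3% at 33 to 40 reads.

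The reads of both marks at a member were loosely related. Among the 311448 members with 5fC on the listed strand, 5fC had a median of 21 reads with quartiles at 13 and 34, and the median ratio of 5fC to 5hmC reads was 0.44. In 9.64% of them 5fC had more reads than 5hmC. The Spearman correlation across these members was 0.33, a description over sites that share libraries and surroundings. Members with no 5fC had a median of 39 5hmC reads, against 45 for those with 5fC on the listed strand.

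A facing 5hmC cytosine went with more 5fC within each class of 5hmC reads, again with the left-out dyads put back. At 33 to 40 reads, 62.97% of dyads with a partner on the listed side had 5fC on that strand (62.7 to 63.3%), against 55.6% of those without (55.3 to 55.9%). The gap narrowed to 81.1% against 77.4% at 49 to 64 reads. At 97 or more it was 97.4% (96.98 to 97.7%) against 96.8% (96.01 to 97.4%), where the intervals overlapped. 5fC on the opposite strand stood at 18.7% against 12.6% at 33 to 40 reads. Reads were matched only by class and only on the listed strand, and depth around the dyad was not matched. Both tables rest on the same enzyme, and the part of its preference in these gaps was not tested.

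The flank of the unlisted strand looked different in the 5fC table. A listed 5fC cytosine faced the unlisted strand at 21 to 24 bases in 7.08% of members (7.00 to 7.16%), against 2.95% at 31 to 34 and 2.05% at 41 to 44 bases. For 5hmC the same flank gave 5.81% against 6.04% and 4.49%. One-strand dyads of 10 to 32 reads had the same pattern at lower levels. Their unlisted side gave 3.41% against 1.82% and 1.35% for 5fC, and 4.36% against 4.76% and 3.69% for 5hmC. On the listed side 28.8% of members had a facing 5fC cytosine. The level on the unlisted side was 12.6% among members with 5fC on both strands, 6.95% with 5fC on the listed strand alone and 4.14% with none. At 24 bases, the farthest of the 4 distances, the 5fC share was highest, at 2.65%.

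Members and deep two-strand dyads lay in similarly dense surroundings. Another listed 5hmC CG dyad was within 100 bases of 84.8% of members and 85.3% of deep two-strand dyads, against 77.6% of one-strand dyads of 10 to 32 reads. The nearest listed dyad was 27, 28 and 36 bases away at the median. Both deep groups had a median of 9 other listed dyads within 500 bases, and 0.701% of members had none that near.

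Chromosomes 8 and 11 held more members per listed dyad than any other autosome. Per 1000 listed dyads there were 55.2 members on chromosome 8 and 60.5 on chromosome 11, while the other 17 autosomes had 31.5 to 38.9. Deep dyads of all kinds were also more frequent there, 193.8 and 210.7 per 1000 against 96.2 to 120.3. Of the deep dyads, fewer were one-strand: 29.8% of them on chromosome 8 and 30.01% on chromosome 11, and 32.98 to 34.2% elsewhere. The lower share held at equal reads, with 33.1% and 33.6% against 35.04 to 36.2% at 33 to 40 reads and 25.9% and 26.1% against 30.1 to 31.2% at 65 to 96.

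**Figure D5:**
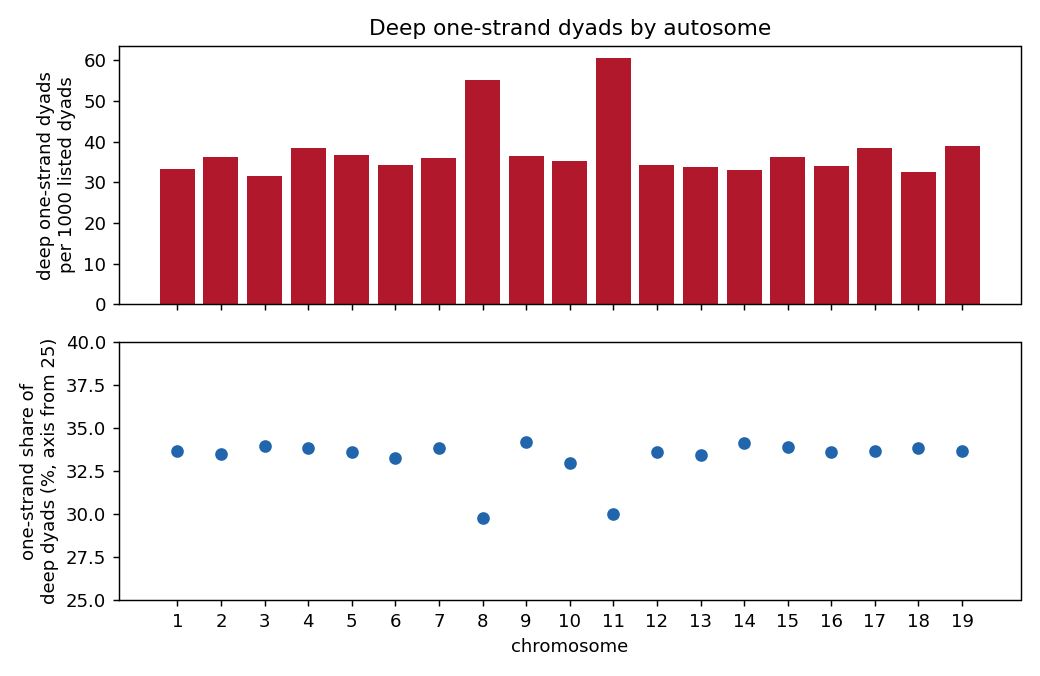
Members per 1000 listed 5hmC CG dyads (top, bars from 0) and the one-strand share of deep dyads in percent (bottom, points on an axis from 25) on each autosome. Chromosomes 8 and 11 stand at 55.2 and 60.5 members per 1000 but at 29.8% and 30.01% one-strand, below the 32.98 to 34.2% of the other autosomes.

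In windows of 100 kb the members followed the listed dyads. Members were found in 21958 of 23892 windows, with a median of 11, and the tenth of windows with the most members held 33.4% of them. Numbers of members and of listed dyads had a Spearman correlation across windows of 0.92, and windows are not independent. Members are themselves counted among the listed dyads, so part of this correlation is built in. The most members, 143 among 1640 listed dyads, were on chromosome 11 from 117900001 to 118000000. Next were chromosome 8 from 122900001 to 123000000 with 127 and chromosome 8 from 119800001 to 119900000 with 125.

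Among the 11949 windows with at least the median of 420 listed dyads, members per listed dyad were most frequent on chromosome 11 from 3000001 to 3100000 with 82 members among 733 listed dyads, or 11.2 per 100. Of these members 91.5% had 5fC on the listed strand. Chromosome 8 followed with 10.98 per 100 from 109600001 to 109700000 and 10.8 from 74800001 to 74900000. Deep dyads of any kind numbered 460 among the 733 listed in the chromosome 11 window. On chromosome 8 they numbered 246 among 792 and 226 among 582. A rate per listed dyad thus does not separate one-strand listing from read depth. Across the 11949 windows of all autosomes the median was 4.10 per 100 and 90% of windows lay between 1.64 and 7.22. The windows named by number and by rate all lay on chromosomes 8 and 11. Deep dyads were more frequent along these chromosomes as a whole, 193.8 and 210.7 per 1000 listed dyads against 96.2 to 120.3 elsewhere. The chromosome 11 window, with 460 deep among 733 listed dyads, lay far above the rate of its chromosome. Its 82 members were a lower share of those 460 than the chromosome's one-strand share of deep dyads, 30.01%, which also counts left-out dyads. No mm9 gene annotation or genome was used here, so genes are not named and no sequence is shown.

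The members with the most reads were gathered in a short stretch of chromosome 2. The plus cytosine at 98506660 held 72386 5hmC reads and 37087 5fC reads, with 17 5fC reads on the opposite cytosine. The plus cytosine at 98502567 held 56465 5hmC and 8731 5fC reads and the minus cytosine at 98506749 held 11972 and 15277. The plus cytosines at 98507324 and 98506670 followed with 10405 and 7123 5hmC reads. None of these 5 had a listed 5hmC cytosine facing it at 21 to 24 bases on either side, unlike most deep members. Their 5hmC reads lay far above the 99th percentile of members, 113. Read mapping in this stretch was not examined, so its counts and strand listings are given only as listed.

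By 5fC reads the same stretch led, adding the plus cytosine at 98506763 with 22748 5fC and 4219 5hmC reads and that at 98507306 with 15201 and 5032. Of 25 members with at least 1000 5hmC reads, 10 lay in the window of chromosome 2 from 98500001 to 98600000, all 25 had 5fC on the listed strand and 3 had a listed-side partner. The 19 members of that window held 0.859% of all reads of members. Without them the median stayed at 43 reads and the share with 5fC at 73.4%.

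Members far from any 5fC formed a small and sparser set. No 5fC cytosine was listed within 1000 bases of 4482 members, 1.06% of all. They had a median of 37 5hmC reads, a median of 3 other listed dyads within 500 bases and a nearest listed dyad at 92 bases, against 43 reads, 9 dyads and 27 bases for the other members. A partner faced the listed strand in 17.6% of them (16.5 to 18.7%), against 58.1% of the others, and the unlisted strand in 1.18%.

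The deepest of these was the plus cytosine of chromosome 6 at 102737872, with 133 reads and 1 other listed dyad within 500 bases. The plus cytosine of chromosome 5 at 95946058 held 119 reads and had no other listed dyad nearer than 4181 bases. On chromosome 9 the minus cytosine at 18747242 held 118 reads with the nearest listed dyad 1473 bases away. The minus cytosines of chromosome 1 at 185559697 and of chromosome 7 at 107532931 held 114 and 91. None of these 5 had a facing 5hmC cytosine on either side.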

How the data were processed

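The authors deposited 1 table for each mark, with the raw count of reads at each listed cytosine (2 at least), its position, dinucleotide and strand. Reads were mapped to mm9, and CASAVA, bcl2fastq, cutadapt and Bowtie were used, per the submitters' processing notes, which give no versions. The assignment of reads to bases and the definition of common sites were not stated there. The members and comparison lists were chosen with earlier results of these data known.

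CG cytosines were joined into dyads by position. Facing cytosines were looked up on the opposite strand downstream of each cytosine, 5fC at the same base and strand, and neighbours along each chromosome. In two-strand dyads the deeper strand stood for the listed one (plus at equal reads). Positions are 1-based. Named were the 5 members with the most 5hmC reads, the most 5fC reads and the most 5hmC reads without 5fC within 1000 bases, and 3 windows of 100 kb by number and by rate of members, the rate only among windows with at least the median number of listed dyads. Facing pairs are an addition outside this rule. Intervals are Wilson intervals at 95%. No p-values are given. Functions were tested on 20000 simulated dyads with 8 of 8 checks passed. The software was Python 3.11.15, numpy 2.4.6, pandas 2.3.3, scipy 1.17.1 and statsmodels 0.14.6.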

Additional observations from a re-analysis of the deposited data

Results flagged for a closer look

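The X and Y chromosomes lie outside the rule, and dyads meeting its other conditions were counted there because more than the 3 that a count of 0 allows were found, a bound that any background passes. Chromosome X held 1951 such dyads among 259735 listed 5hmC CG dyads. Chromosome Y held 55 among 2712.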

How the results depend on the processing

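No paired analysis was possible because libraries were summed at each site, and no library could be left out either. Intervals are so narrow that small moves count. The direction between listed and unlisted side held in each setting, in all of which dyads were chosen by their listed strand. With at least 20 reads there were 1118712 members, a facing cytosine on 41.1% of listed and 4.78% of unlisted sides, 5fC on 54.5%, same-strand neighbours in 45.2% and a dyad within 100 bases for 82.7%. With at least 65 reads the values were 56985, 63.2%, 5.49%, 93.1%, 34.3% and 85.3%. Without chromosomes 8 and 11 they were 51.7%, 5.12%, 73.0%, 41.5% and 84.5% (342007 members). Keeping dyads with 5fC on the opposite strand alone gave 70.5% with 5fC and 85.0% with a near dyad. Partners of at least 10 reads faced 32.4% and 1.55% of the sides. The window of 18 to 25 bases gave 59.0% and 10.6%, and that of 21 to 24 bases, added after the data were seen, 57.7% and 5.81%. 5fC of at least 10 reads stood at 61.9%. Neighbours within 1000 bases shared a strand in 46.4%. The causes were not tested. A count of reads is not a modification level, so depth limits what a missing listing shows.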

Other observations

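Next to a member on its own strand, a listed 5hmC cytosine stood 1, 2 and 3 bases before the member in 2.06%, 2.37% and 3.12% of members, against a median of 1.47% at offsets of 30 to 60 bases. In deep two-strand dyads the shares were 1.90%, 2.06% and 2.89%. In one-strand dyads of 10 to 32 reads they were 0.732%, 1.37% and 1.80%, against a median of 1.07%.

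A weaker rise of facing 5hmC cytosines followed the main one on the listed side, at 2.35% of members at 43 bases and 2.27% at 44. In deep two-strand dyads these shares were 2.16% and 2.10%, and in one-strand dyads of 10 to 32 reads 1.26% and 1.21%. Upstream of the member, a cytosine on the opposite strand was listed in 0.602% of members at 20 bases and in 0.371% at 1 base. The same positions gave 1.32% and 0.371% in deep two-strand dyads, and 0.544% and 0.523% in one-strand dyads of 10 to 32 reads.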
